A study of Mus musculus with 12 samples.

Results

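Expression of 5 transcription factor genes, Irf4, Batf, Irf8, Spib and Spi1, was followed in mouse germinal centre (GC) B cells of the light zone (LZ) and dark zone (DZ), each at high and low affinity for antigen. The genes were picked by name, from 6 symbols of which Sfpi1 is an older symbol of Spi1, with earlier results of these data known; no measured value enters the rule. Each had a single probe set (a group of array probes for a gene) with that symbol, and all 5 were among the 11206 genes bright enough to test, of 19938 genes in all. In RefSeq's annotation of GRCm38.p6 the genes lie at chr13:30749233-30766981 (Irf4, probe set 10404389), chr12:85686720-85709087 (Batf, 10397359), chr8:120736358-120756694 (Irf8, 10576034), chr7:44525995-44532087 (Spib, 10562812) and chr2:91082374-91115759 (Spi1, 10473809). Levels of different probe sets are not compared. SwHEL B cells, which carry a receptor for hen egg lysozyme and the CD45.1 marker, had been transferred into C57BL/6J hosts (CD45.2), and the immunogen was sheep red blood cells carrying HEL3x, a mutated lysozyme. On day 10, donor GC B cells of the spleen (CD45.1+, CD45.2-, IgG1+, CD38 low) were sorted as LZ cells (CD86 high, CXCR4 low) or DZ cells (CXCR4 high, CD86 low). The 4 groups, DZ_low, DZ_high, LZ_low and LZ_high, therefore differ in zone and affinity and share strain, donor receptor, immunogen, day and sex (female, per the labels). Each group holds 3 arrays. The labels used here do not state how affinity was gated, nor whether animals were pooled or separate within a group. The p-values therefore reflect only how these samples spread, and that spread may be technical.

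IRF4 and IRF8 are closely related members of the interferon regulatory factor family that bind DNA weakly alone and strongly with a partner. With PU.1 (the product of Spi1) or the related SPI-B, both ETS family proteins, they bind composite ETS-IRF elements, and with a heterodimer of BATF and a JUN protein they bind composite AP-1-IRF elements. In B cells Irf4 is induced by antigen receptor and CD40 signals, needed for the start of the GC reaction and, at sustained high levels, for plasma cell differentiation. BATF is needed for class switching, and IRF8, PU.1 and SPI-B are known as factors that hold the B cell state and restrain plasma cell differentiation.

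The bases just before the start sites of Irf4 and Batf are shown because these were the members with their lowest mean in DZ_low and highest in LZ_high. They come from RefSeq (GRCm38.p6), whose promoter table matched 4 of the 5 members by symbol, all but Spi1. Capitals mark the ETS core GGAA and the IRF core GAAA on either strand (TTCC and TTTC on the other strand), which overlap where they read GGAAA or TTTCC. The 250 bases lie on the plus strand at chr13:30748983-30749232 for Irf4 and at chr12:85686470-85686719 for Batf.
Irf4: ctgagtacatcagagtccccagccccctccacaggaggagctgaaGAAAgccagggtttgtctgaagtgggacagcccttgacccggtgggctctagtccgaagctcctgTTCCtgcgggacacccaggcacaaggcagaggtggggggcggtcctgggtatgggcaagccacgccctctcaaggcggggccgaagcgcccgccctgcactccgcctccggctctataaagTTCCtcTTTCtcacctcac
Batf: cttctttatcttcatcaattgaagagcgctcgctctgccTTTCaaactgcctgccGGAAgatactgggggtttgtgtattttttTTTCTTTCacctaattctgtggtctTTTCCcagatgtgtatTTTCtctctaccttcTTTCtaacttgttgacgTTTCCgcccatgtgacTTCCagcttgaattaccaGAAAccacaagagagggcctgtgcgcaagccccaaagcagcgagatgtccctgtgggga
Within the 300-base window (250 before and 50 after the start), the Batf promoter held 8 matches to GAAA and that of Irf4 held 4, counting both strands, against a median of 3 over 32841 RefSeq promoters of that length. As many as 8 were found in 3.99% of all promoters and as many as 4 in 37.4%. Matches to GGAA numbered 4 at Batf and 3 at Irf4, with a median of 3 over all promoters. The Irf8 window at chr8:120738389 held as many as Irf4, 4 matches to GAAA and 3 to GGAA. That at chr8:120736108 held 3 and 2, and the Spib window 1 and 1. These short words are common: 89.2% of promoters held GAAA and 96.0% held GGAA. The composite ETS-IRF words, GGAA and GAAA in that order with 2 or 3 bases between them (2.72% and 2.76% of promoters, both strands searched), were in none of the windows of Irf4, Batf, Irf8 and Spib. The AP-1-IRF words were GAAA joined to the AP-1 word TGANTCA (0.125% of promoters), and TTTC or GAAA placed 4 bases before it (0.119% and 0.149%). These, the AP-1 word alone (7.81%) and the NF-kB word, GGGA and TTTCC with 1 base between them (0.411%), were not in these windows either, which says only that these letters are absent from them.

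The 12 arrays split by a suffix in the sample descriptions into 3 matched sets, each with 1 array of every group. Matched set 3 stood apart on the first principal component of the tested genes (40.1% of the variance), with scores from 12.5 to 52.9 against -26.4 to -6.71 on the other 8 arrays, so the zone differences of all 5 genes are given with and without it. The sorted cell type was checked first: 11 of 13 fixed GC B cell genes could be measured and all 11 were bright, with a mean level of 10.1 to 10.5 on the log2 scale on every array and a mean percentile within the array of 93.0 to 93.8 by group. Marker lists of other cells held both dim and bright genes. Of 9 measured macrophage and monocyte markers Cd68 was above the array median on all 12 arrays (mean percentile 76.2) and Lyz2 on 7, and Csf1r, Adgre1, Cd14, Mertk and C1qc were below it on all 12. Among 8 granulocyte markers S100a9 was above it on 12 arrays (79.6) and S100a8 on 11, with Ly6g and Ltf below it on all 12. Of 7 measured T cell markers none was above it on all 12; Cd3e and Cd8a were on 7 and Cd4 on 0. Flt3 was above it on all 12 arrays (78.8) among 6 conventional dendritic cell markers, with Itgax, Xcr1, Clec9a and Cd209a on 0. Of 5 measured plasmacytoid dendritic cell markers Pacsin1 (76.8) and Cox6a2 (63.8) were above it on all 12, and Siglech, Ccr9 and Lair1 on 0. Of 6 plasma cell markers Jchain (95.1), Slamf7 (90.9) and Xbp1 (81.6) were above it on all 12, and Prdm1 and Tnfrsf17 on 0.

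Batf was higher in LZ than in DZ cells over both affinities together. At each affinity alone its values lay higher in LZ without passing (adjusted p = 0.225 at high and 0.642 at low affinity, by limma). Its log2 values were 7.98, 8.03 and 8.06 in LZ_low and 8.50, 8.28 and 8.99 in LZ_high (matched sets 1, 2 and 3), against 7.65, 7.24 and 7.24 in DZ_low and 7.50, 7.51 and 7.83 in DZ_high. Every LZ array was above every DZ array, which was true of 0.535% of the tested genes. The group means rose in the order DZ_low (7.38 ± 0.24, SD, n = 3), DZ_high (7.61 ± 0.19), LZ_low (8.02 ± 0.040) and LZ_high (8.59 ± 0.36). The arrays of DZ_low and DZ_high overlapped, and the other neighbours in this order did not. The difference of LZ minus DZ was 0.81 ± 0.14 on the log2 scale (SE; 95% interval 0.50 to 1.12), a 1.75-fold rise, with an adjusted p of 0.0365 by limma over all tested genes. It was higher in LZ in 6 of 6 within-set pairs, as were 4.54% of tested genes. Of the 5 members, Batf was the only one called, with 0.419% of tested genes called in this comparison (47 of 11206), 0.232% as higher.

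The call of Batf was near the threshold. It held with the replicate block (matched set as a term; adjusted p = 0.0194, where 135 genes or 1.2% were called) and without matched set 3 (0.72 ± 0.14, adjusted p = 0.0462). It was lost with centring on array medians (0.82, adjusted p = 0.0556), with a trended and robust variance model (0.0605), and in 9 of 12 fits that left out 1 array (0.0749 to 0.106). It was kept without DZ_high replicate 3 (0.0492), LZ_high replicate 2 (0.0495) or LZ_high replicate 3 (0.0319). Over every fit run the difference lay between 0.67 and 0.89.

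Irf4 had the same order of group means as Batf but a wider spread. Its log2 values were 6.27, 5.17 and 5.39 in DZ_low (sets 1, 2 and 3), 5.92, 6.40 and 6.33 in DZ_high, 6.27, 6.32 and 6.53 in LZ_low, and 7.05, 6.44 and 7.30 in LZ_high. The lowest readings were those of DZ_low in sets 2 and 3, which lay under the array median (percentiles 37.9 and 45.6), while the other 10 arrays were above it and the highest, LZ_high of set 3, was at percentile 76.4. The means were 5.61 ± 0.58 (SD, n = 3) in DZ_low, 6.22 ± 0.26 in DZ_high, 6.37 ± 0.14 in LZ_low and 6.93 ± 0.44 in LZ_high. Neighbouring groups overlapped from DZ_low to DZ_high to LZ_low to LZ_high, with LZ_high replicate 2 (6.44) below LZ_low replicate 3 (6.53).

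The zone difference of Irf4 was 0.74 ± 0.21 (SE; 95% interval 0.28 to 1.19), with an adjusted p of 0.25 by limma, so Irf4 did not pass. Its unadjusted p of 0.00453 was number 203 in rank among the 11206 genes, of which 7.06% had an unadjusted p under 0.05. The adjusted p was 0.155 with the replicate block, and the difference was 0.58 ± 0.24 without matched set 3 and 0.42 ± 0.19 with array weights, the lowest of any fit. Within sets the high-affinity difference was 1.13, 0.038 and 0.97, and the low-affinity difference was 1.15 and 1.14 in sets 2 and 3. In set 1 both low-affinity arrays listed the same value, 6.27. Identical values are not rare in this table, with 372 of 28853 probe sets equal between these 2 arrays and a median of 386 over the 66 pairs of arrays. At high affinity every LZ array was above every DZ array for Irf4 and for Batf, as for 3.72% of tested genes. At low affinity this was true of Batf and not of Irf4 (5.41% of tested genes).

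**Figure D1:**
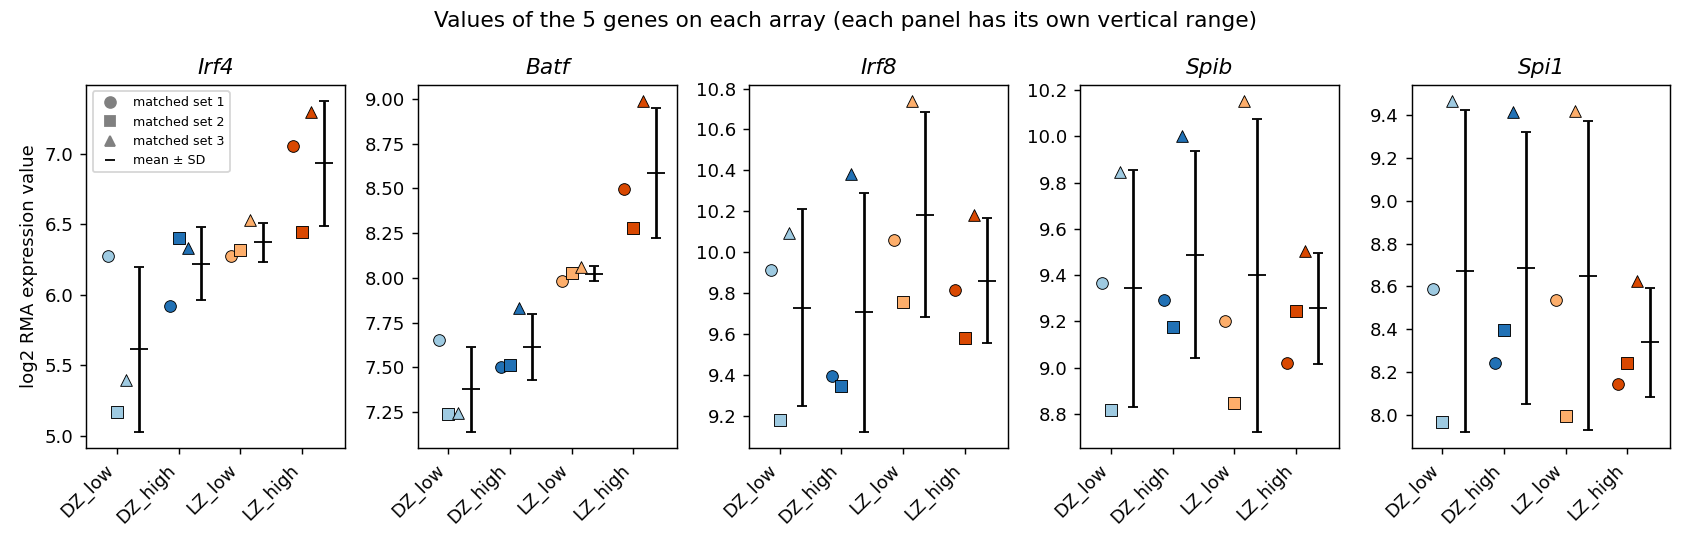
Log2 RMA expression values of Irf4, Batf, Irf8, Spib and Spi1 on the 12 arrays, by group (horizontal axis), with 1 point per array, marker shape by matched set, and bars for the mean ± SD (n = 3); each panel has its own vertical range. Batf rises from DZ_low (mean 7.38) to LZ_high (8.59) with no overlap between zones, Irf4 has the same order with overlap, and the triangles of matched set 3 are the highest of their group for Irf8, Spib and Spi1.

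Irf4 and Batf moved together from array to array. Over the 12 arrays Pearson's r was 0.907 and Spearman's rho 0.897. Without the 2 arrays farthest from the Irf4 median, set means kept, r was 0.848. With the mean of each matched set subtracted r was 0.908 over the 12 arrays. The arrays share groups and sets, so this describes the pattern and has no p. By this measure with set means removed, Batf was number 10 among the tested genes most like Irf4, and Irf4 was number 7 among those most like Batf. For the other members r with Irf4 by this measure was 0.41 (Irf8), -0.14 (Spib) and -0.40 (Spi1). With set means kept it was 0.38, 0.089 and -0.034 in that order. Without those 2 arrays, set means kept, it was 0.029, -0.30 and -0.39.

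**Figure D2:**
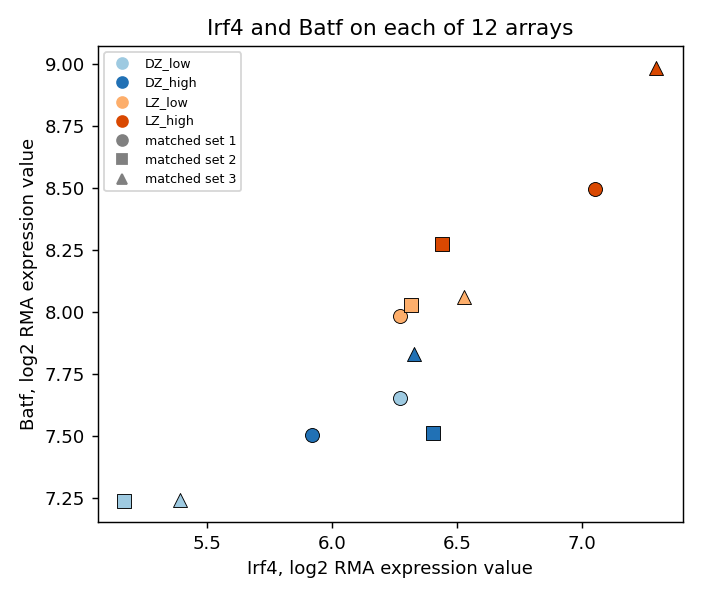
Log2 RMA expression value of Batf (vertical axis) against Irf4 (horizontal axis), with 1 point per array, colour by group and marker shape by matched set. The points run from DZ_low of sets 2 and 3 (Irf4 5.17 and 5.39) to LZ_high of set 3 (Irf4 7.30, Batf 8.99), with r = 0.907 over 12 arrays.

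Irf8 was among the brightest genes on every array, at percentile 90.3 to 95.4. Its log2 values were 9.91, 9.18 and 10.09 in DZ_low, 9.40, 9.34 and 10.38 in DZ_high, 10.06, 9.76 and 10.74 in LZ_low, and 9.82, 9.58 and 10.18 in LZ_high. The highest array of each group was that of matched set 3, and all 4 groups overlapped. The means were 9.71 ± 0.58 (SD, n = 3) in DZ_high, 9.73 ± 0.48 in DZ_low, 9.86 ± 0.31 in LZ_high and 10.18 ± 0.50 in LZ_low, and no neighbours in this order differed beyond their spread. LZ minus DZ was 0.30 ± 0.25 (SE, 95% interval -0.24 to 0.85, adjusted p = 0.999 by limma, 0.384 with the replicate block). With the block the SE was 0.12 and the unadjusted p 0.032 by limma, beside 1211 of 11206 tested genes under 0.05. At low affinity alone the difference with the block was 0.46 ± 0.17 (unadjusted p = 0.0249, adjusted p = 0.511 by limma), beside 866 of 11206 tested genes under 0.05 unadjusted. At high affinity alone it was 0.15 ± 0.17 (unadjusted p = 0.396). LZ minus DZ was positive in 5 of 6 within-set pairs, the exception being high affinity in set 3 (-0.20). The share of all tested genes with 5 positive zone pairs was not counted. Without matched set 3 it was 0.34 ± 0.17 (adjusted p = 0.535), and with array weights 0.18 ± 0.18.

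Spib and Spi1, which encode the related ETS factors SPI-B and PU.1, did not pass for zone. Spib had log2 values of 9.36, 8.82 and 9.84 in DZ_low, 9.29, 9.17 and 10.00 in DZ_high, 9.20, 8.85 and 10.15 in LZ_low, and 9.02, 9.25 and 9.50 in LZ_high. The group means of Spib ran from 9.26 ± 0.24 (SD, n = 3) in LZ_high through 9.34 ± 0.51 in DZ_low and 9.40 ± 0.67 in LZ_low to 9.49 ± 0.45 in DZ_high, a range of means smaller than the SD of DZ_low, LZ_low or DZ_high. For Spi1 the values were 8.59, 7.97 and 9.46 in DZ_low, 8.24, 8.40 and 9.41 in DZ_high, 8.54, 7.99 and 9.42 in LZ_low, and 8.15, 8.24 and 8.63 in LZ_high. Spi1 had its lowest mean in LZ_high, 8.34 ± 0.25, and means of 8.65 ± 0.72 in LZ_low, 8.67 ± 0.75 in DZ_low and 8.69 ± 0.64 in DZ_high. LZ minus DZ was -0.088 ± 0.25 for Spib (95% interval -0.65 to 0.47) and -0.19 ± 0.31 for Spi1 (-0.88 to 0.51), both with an adjusted p of 0.999 by limma. With the replicate block the SE was 0.14 and 0.15 and the adjusted p 0.919 and 0.789. Within sets Spi1 was higher in LZ in 1 of 6 pairs (0.025, low affinity of set 2); the other pairs lay between -0.15 and -0.044 except high affinity of set 3, at -0.79. For Spib 3 of 6 pairs were higher in LZ, from -0.50 to 0.31. Without matched set 3 the difference was -0.084 ± 0.16 for Spib and -0.070 ± 0.18 for Spi1, and with array weights -0.15 ± 0.19 and -0.25 ± 0.23. Without DZ_low replicate 3 the sign turned for both (0.038 for Spib and 0.012 for Spi1), and for Spib also without DZ_high replicate 3 (0.040) or LZ_low replicate 2 (0.051).

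What separated the arrays for Irf8, Spib and Spi1 was the matched set. On all 4 arrays of set 3 each of these genes was higher than on all 8 other arrays, as were 5.92% of tested genes. The set means (sets 1, 2 and 3) were 9.80, 9.47 and 10.35 for Irf8, 9.22, 9.02 and 9.87 for Spib, and 8.38, 8.15 and 9.23 for Spi1. For Batf they were 7.91, 7.76 and 8.03 and for Irf4 6.38, 6.08 and 6.39. Of the sum of squares over the 12 arrays, the set took 70.1% for Irf8, 78.3% for Spib and 77.4% for Spi1, against 6.18% for Irf4, 4.79% for Batf and a mean of 32.3% over all tested genes. Zone took 66.1% for Batf and 41.9% for Irf4, against 12.2%, 1.13% and 3.06% for Irf8, Spib and Spi1 and a mean of 9.82%. Spib and Spi1 correlated with r = 0.962 over the 12 arrays and 0.827 with set means removed. For Irf8 r went from 0.812 to 0.314 with Spib and from 0.805 to 0.307 with Spi1.

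**Figure D3:**
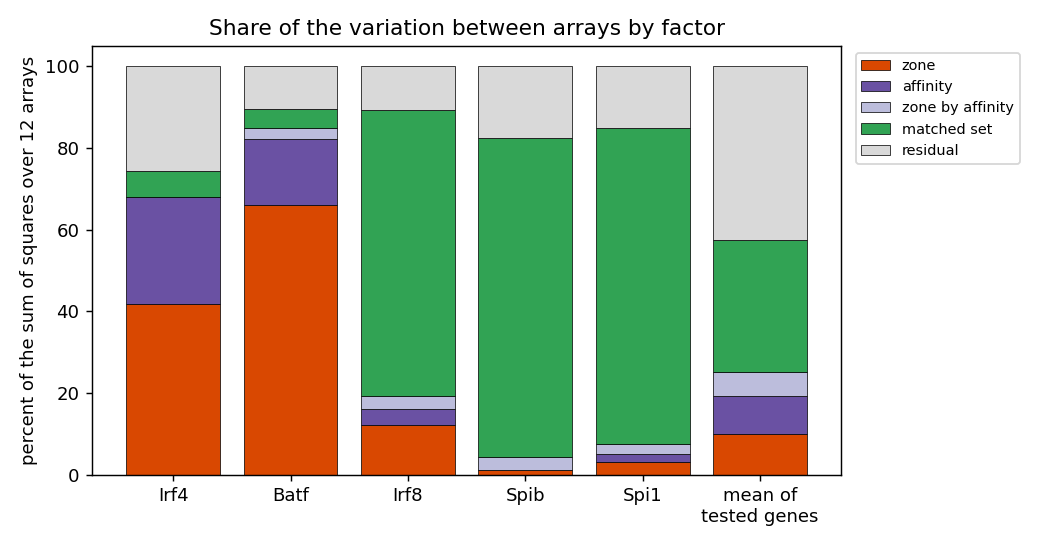
Share of the sum of squares over 12 arrays (vertical axis, percent) taken by zone, affinity, their interaction, matched set and the residual, for each of the 5 genes and as the mean of all 11206 tested genes. Zone and affinity take most of the bar for Irf4 and Batf, and matched set takes 70.1% to 78.3% for Irf8, Spib and Spi1.

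Marker levels of GC B cells and of other cells in set 3 are given beside this result. The mean log2 level over the 11 measured GC B cell genes was 10.105 to 10.35 on the set 3 arrays and 10.24 to 10.45 on the others. In every group the set 3 array had the lowest level of these genes. The mean log2 level over the 9 measured macrophage markers was 5.20 to 5.72 on the set 3 arrays and 4.95 to 5.37 on the others. For the 7 T cell markers these were 5.15 to 6.10 and 4.79 to 5.27. The macrophage (5.72) and T cell (6.10) levels were both highest in LZ_low of set 3, the array with the highest Irf8 and Spib. The 6 conventional dendritic cell markers had levels of 4.98 to 5.23 in set 3 and 5.05 to 5.17 otherwise. For the 5 plasmacytoid dendritic cell markers these were 5.61 to 5.87 and 5.43 to 5.82. Both dendritic cell lists were highest in LZ_high of set 3. Granulocyte markers were 5.48 to 6.77 in set 3 and reached 7.01 in set 2, where Irf8, Spib and Spi1 had their lowest set means. The part of these cells in the set difference was not tested. As the samples are bulk RNA, a change in the number of cells of a type and in RNA per cell cannot be told apart.

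High and low affinity cells of the same zone were compared next. In the LZ the difference of high minus low was 0.56 ± 0.20 (SE; 95% interval 0.12 to 1.00) for Batf, and all 3 LZ_high arrays were above all 3 LZ_low arrays, as for 4.32% of tested genes. Irf4 differed by 0.56 ± 0.29 (-0.088 to 1.21), with the values of the 2 groups overlapping. In the DZ the differences were 0.61 ± 0.29 (-0.040 to 1.25) for Irf4 and 0.24 ± 0.20 (-0.20 to 0.67) for Batf. Both genes had the higher value at high affinity in 5 of 6 within-set pairs, with DZ of set 1 the exception for both (-0.35 for Irf4 and -0.15 for Batf). The share of all tested genes with as many such pairs was not counted. Without matched set 3 the difference of Batf was 0.38 in the LZ and 0.063 in the DZ, and that of Irf4 was 0.45 and 0.44. With array weights these were 0.35 and 0.082 for Batf and 0.29 and 0.42 for Irf4. The estimates for Irf8 were -0.32 ± 0.35 in the LZ and -0.022 ± 0.35 in the DZ, for Spib -0.14 ± 0.36 and 0.15 ± 0.36, and for Spi1 -0.31 ± 0.44 and 0.011 ± 0.44 (the last -0.015 with arrays centred on their medians).

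None of the 5 members passed in either affinity comparison by limma (adjusted p of 0.999 in the LZ and 1 in the DZ for each). Nor did any other tested gene: 0% was called in both, and 466 genes (4.16%) in the LZ and 247 (2.2%) in the DZ had an unadjusted p under 0.05. With the replicate block 0 genes were called in both, with 891 (7.95%) and 597 (5.33%) unadjusted. Of the members only Batf in the LZ was among these genes without the block. The zone difference taken at high affinity alone was 0.97 ± 0.20 for Batf (adjusted p = 0.225) and 0.71 ± 0.29 for Irf4 (0.988), and at low affinity alone 0.65 ± 0.20 (0.642) and 0.76 ± 0.29 (0.885). With array weights Irf4 was at 0.35 and 0.49. These comparisons called 0.0357% of tested genes each and none of the members. The interaction (high minus low in LZ, less the same in DZ) was 0.32 ± 0.28 for Batf (95% interval -0.29 to 0.94) and -0.048 ± 0.42 for Irf4 (-0.96 to 0.87). It was -0.30 ± 0.49 for Irf8, -0.29 ± 0.51 for Spib and -0.32 ± 0.63 for Spi1. With 0% of genes called in the interaction (177 or 1.58% unadjusted, 408 or 3.64% with the replicate block), no member was shown to differ between affinities in its zone difference, and the intervals are wide.

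**Figure D4:**
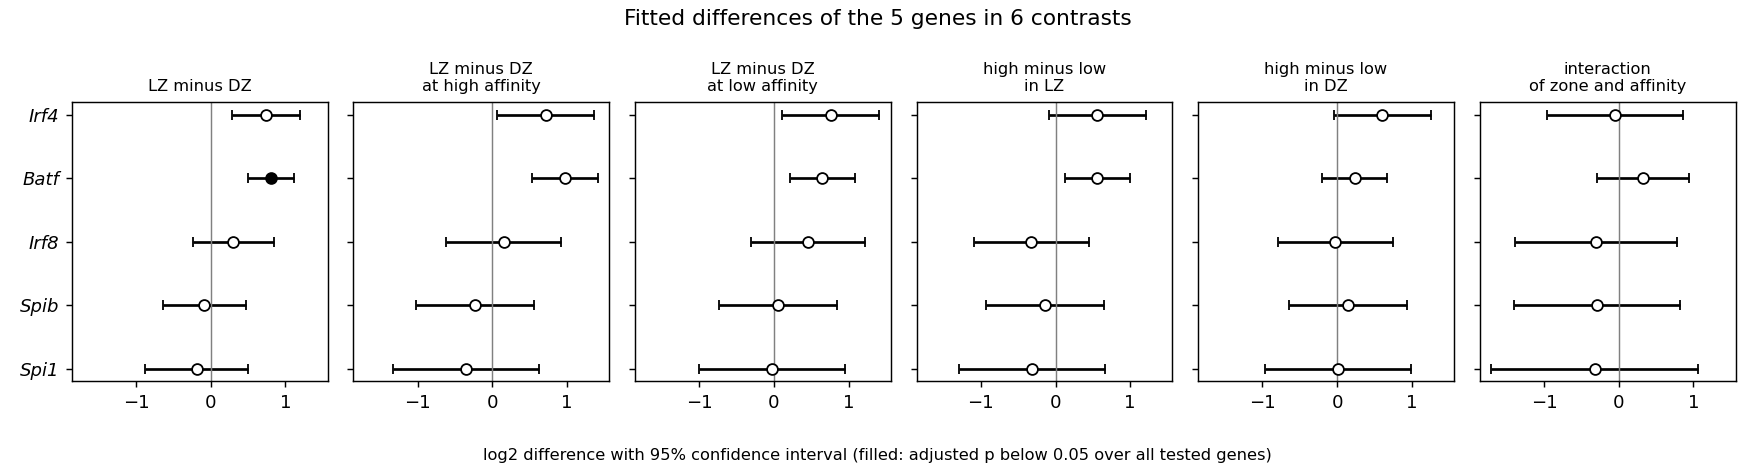
Fitted log2 differences (horizontal axis) with 95% confidence intervals for the 5 genes (vertical axis) in 6 contrasts, from limma over 12 arrays; filled points had an adjusted p below 0.05 over all tested genes. Batf in LZ minus DZ (0.81) is the only filled point. The intervals shown, from the fit without the replicate block, include 0 in every contrast for Irf8, Spib and Spi1.

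The other genes of the 3 families were set beside the members. Of 9 IRF genes 8 were tested and none passed in LZ minus DZ; the median difference was 0.23 and 6 of 8 were above 0, beside a median of -0.0038 and 5488 of 11206 above 0 for all tested genes. After Irf4 the smallest p belonged to Irf9, the DNA-binding part of the interferon-activated complex ISGF3 (0.35 ± 0.13, SE; adjusted p = 0.501), followed by Irf5 (0.28 ± 0.18), which acts in Toll-like receptor signalling. High minus low in the LZ was positive for Irf4 and negative for the other 7 tested IRF genes, with a family median of -0.38 and none called. Most lists leaned the same way in this comparison, beside 5568 of 11206 tested genes above 0. Above 0 were 2 of 11 GC B cell genes, 2 of 14 ETS genes, 2 of 13 signal genes, 1 of 6 granulocyte markers (median -0.73) and 1 of 4 macrophage markers (-0.38). The AP-1 and BATF family did not, with 6 of 9 above 0 (0.0072), nor did plasma cell markers, with 3 of 4 (0.054). Of genes described as targets of IRF4 or BATF, 4 of 9 were above 0 (-0.081). The part of such cells in these values was not tested.

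Of 16 AP-1 and BATF family genes 9 were tested and 1, Batf, was called as higher in LZ cells, as were 0.232% of tested genes. The family median was -0.12, and Batf and the JUN family gene Junb (0.33 ± 0.25, adjusted p = 0.995) were the only 2 above 0. Atf3, a stress-induced bZIP factor gene, had the next smallest p, at -0.39 ± 0.12 (adjusted p = 0.29). Atf3 was at or above the array median on 3 arrays, the fewest that testing allowed. Its group means were 5.69 in DZ_high, 5.79 in DZ_low, 5.39 in LZ_high and 5.31 in LZ_low. The array medians ran from 5.57 to 5.72, so the difference of this dim gene carries little weight. Bach2, which encodes a repressor of plasma cell differentiation, had -0.38 ± 0.22 (adjusted p = 0.882). Jun, Fos, Fosb, Fosl1, Maf and Batf3 were too dim to test. Of 16 ETS family genes 14 were tested and none passed. Their median was 0.028, with 8 of 14 above 0, and the smallest p was that of the ternary complex factor gene Elk1 (0.40 ± 0.12, adjusted p = 0.293). Spic was too dim to test.

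**Figure D5:**
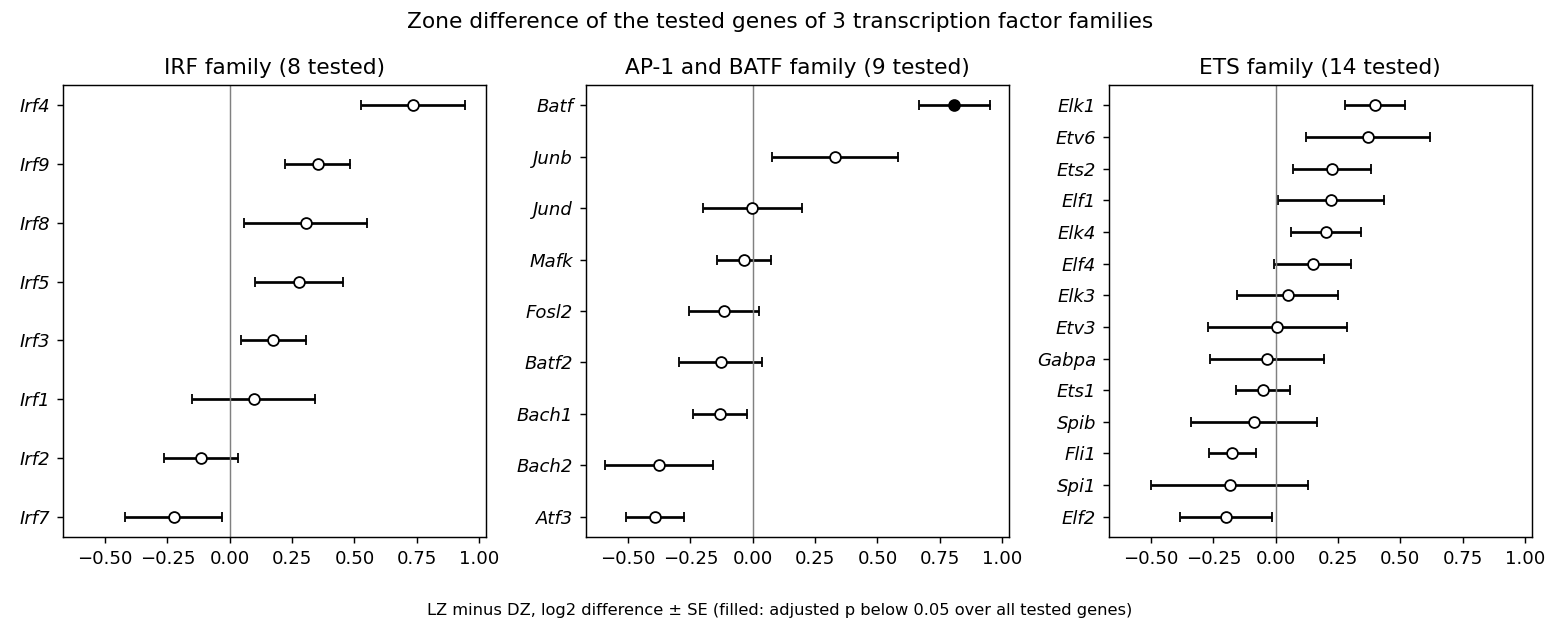
LZ minus DZ log2 differences ± SE (horizontal axis) for the tested genes of the IRF (8), AP-1 and BATF (9) and ETS (14) families (vertical axis), from limma over 12 arrays; filled points had an adjusted p below 0.05 over all tested genes. Irf4 (0.74) and Batf (0.81) have the highest differences of their families, and Batf alone is filled.

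Genes that carry signals towards Irf4 were mostly above 0 in LZ minus DZ over both affinities together, without passing. Of 15 listed, 13 were tested and 10 had positive differences (median 0.13), beside 5488 of 11206 tested genes. At low affinity 13 of 13 were above 0 (median 0.28), beside 5548 of 11206 tested genes. At high affinity 6 of 13 were (median -0.048), beside 5477 of 11206. The CD40 receptor gene Cd40 was at 0.55 ± 0.15 (SE; adjusted p = 0.231 by limma, 0.0561 with the replicate block), Relb at 0.34 ± 0.11 (0.328) and Nfkb2 at 0.50 ± 0.19 (0.573), the last 2 encoding the subunits of the NF-kB dimer that CD40 activates. Of 12 genes described as targets of IRF4 or BATF in B cells, 9 were tested and none passed, with a median of -0.235 and 3 of 9 above 0. Myc (0.71 ± 0.26, adjusted p = 0.501) and Ebi3, a cytokine subunit gene (0.50 ± 0.17, 0.424), had positive differences, and Mzb1, which encodes a chaperone of antibody-secreting cells, had a negative one (-0.62 ± 0.14, 0.127). Prdm1 and Il10 were too dim to test.

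Of 16 genes described as targets of PU.1, SPI-B or IRF8, 14 were tested and 1 was called as higher in LZ cells, as were 0.232% of tested genes. This was Cd72, a B cell co-receptor gene (1.30 ± 0.20, SE, adjusted p = 0.0234 by limma). Its call was lost with arrays centred on their medians (0.05). The call was kept without any 1 array of DZ_high, DZ_low replicate 3 or LZ_high replicate 3. Without any other array the adjusted p of Cd72 was 0.051 to 0.0752. The inhibitory co-receptor gene Cd22, named here because its value was seen and not by the rule, did not pass by limma (0.51 ± 0.12, adjusted p = 0.16). It passed with the replicate block (0.0443), where 79 of 11206 tested genes were called as higher. The list's median was 0.23, and 11 of 14 were above 0. High minus low in the LZ was above 0 for 1 of these 14, with a median of -0.31 and none called, a lean shared with most lists given beside the IRF family.

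Of the plasma cell markers only Jchain was called in LZ minus DZ. All 4 tested of 6 were below 0 (median -0.37), beside 5488 of 11206 tested genes above 0. The adjusted p was 0.213 for Slamf7, 0.773 for Sdc1 and 0.96 for Xbp1 by limma. Sdc1 was dim, at or above the array median on 4 arrays. Its group means were 5.88 in DZ_high, 5.68 in DZ_low, 5.56 in LZ_high and 5.47 in LZ_low. The array medians ran from 5.57 to 5.72, so the sign of Sdc1 carries little weight in this count. Jchain, the joining chain of secreted antibody, fell by 0.97 on the log2 scale (SE 0.17, adjusted p = 0.0427 by limma, where 0.187% of tested genes were called as lower). Its call was kept without LZ_high replicate 3 (0.0263) or LZ_low replicate 3 (0.0367) and lost without any other array (0.0652 to 0.126), with no filter (0.053) and with median centring (0.0816). The mean level over the 6 measured markers was 6.91 to 7.29 in LZ and 7.26 to 7.75 in DZ arrays. Among the other cell types none of the tested markers passed in LZ minus DZ: macrophage 4 of 10 tested (median 0.13, Cd68 at 0.65 ± 0.18, adjusted p = 0.234, 0.0371 without matched set 3), T cell 3 of 8 (-0.089), granulocyte 6 of 8 (-0.044), conventional dendritic 1 of 6 (Flt3, 0.18) and plasmacytoid dendritic 2 of 6 (0.42, Pacsin1 at 0.75 ± 0.22, adjusted p = 0.288). The T cell marker level spanned 4.86 to 5.64 in DZ and 4.79 to 6.10 in LZ arrays, and the part of such cells in the values of Irf4 and Batf was not tested. Within the GC B cell list none passed; Gcsam, a GC signalling adaptor gene, was at -0.87 ± 0.21 (adjusted p = 0.143, 0.0373 with the replicate block, where 0.5% of tested genes were called as lower).

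The genes whose pattern over the 12 arrays was most like each member were found by Pearson's r with set means removed, over protein-coding tested genes. For Irf4 these were Tm9sf1 (0.962), the nucleolar protein gene Nop56 (0.938), the farnesyl diphosphate synthase gene Fdps (0.937), Gstt2 (0.935) and the ATP citrate lyase gene Acly (0.919). For Batf they were the transferrin receptor gene Tfrc (0.963), the EGR co-repressor gene Nab1 (0.941), the 4-1BB ligand gene Tnfsf9 (0.930), the proteasome activator gene Psme2 (0.927) and the immediate early gene Ier2 (0.925). Tfrc had means of 8.12 in DZ_low, 8.37 in DZ_high, 8.69 in LZ_low and 9.43 in LZ_high, the same order as Batf. Nearest to Irf8 were Fermt3 (0.972), Stk10 (0.959), the kinase gene Fgr (0.948), Myl12b (0.947) and Etv5 (0.946), which had their highest group mean in LZ_low. For Spib these were Ccl5 (0.944), Ap1s1 (0.929), Wdr83os (0.928), Ints3 (0.908) and Bex3 (0.902), and for Spi1 Fam89b (0.975), Spag7 (0.962), Arhgap1 (0.957), Vps4a (0.954) and Ubtf (0.947), each with its lowest group mean in LZ_high.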

How the data were processed

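RNA from 12 samples was amplified, labelled with biotin and hybridized to one-colour arrays. Each deposited value is a log2 expression level of a probe set, made with RMA; the submitters' processing notes name RMA and build mm8. The base of the logarithm was inferred from the values, which run from 1.99 to 13.74. Detection calls were not used here, and the number of arrays limits the precision. Of 28853 probe sets 21789 had a single gene symbol, of which 21698 matched RefSeq by gene ID. The brightest probe set (highest mean) stood for its gene. Testing required a value at or above the array median on 3 or more of the 12 arrays. Coordinates and promoters are RefSeq's (GRCm38.p6), not those of the arrays' build.

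Group means over all 12 arrays were fitted by lmFit and eBayes (limma 3.58.1, R 4.3.3), and two-sided p-values were adjusted by Benjamini-Hochberg over 11206 genes and called below 0.05. The members and the 13 gene lists were chosen with earlier results of these data known. Named genes were the members, called list genes or else up to 3 of a list by smallest p, and the 5 genes most like each member.

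Arrays with the same suffix were read as matched sets (the replicate numbers used here). With group means removed, 17 of 18 same-set pairs correlated above 0.1 (from -0.071, with a median of 0.41), and the nearest array belonged to the same set for 11 of 12. Set as a block was an alternative, as were a random block, other filters, quantile normalization, median centring, another variance model, array weights, fewer groups, averaged probe sets, and fits that left out an array or set 3.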

Additional observations from a re-analysis of the deposited data

How the results depend on the processing

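The zone difference of Batf kept its direction in every fit (0.67 to 0.89), and its call was lost with array median centring (0.82) and with the trended and robust model (0.81), where 0 members were called; without 1 array it was 0.71 to 0.89, with 0 to 1 members called. The count of genes called in LZ minus DZ, 47, became 135 with the replicate block, 110 with a random block, 80 with quantile normalization, 28 with median centring, 211 with array weights, 87 without matched set 3 and 95 with the block as well, and 12 to 67 without 1 array. At high affinity the count of 4 became 9 with the replicate block, 12 with a random block, 21 with array weights, 0 with only the groups compared and 2 to 5 without 1 array. At low affinity the count of 4 became 25 with the replicate block, 18 with a random block, 7 with quantile normalization, 32 with array weights, 0 with only the groups compared and 0 to 5 without 1 array. High minus low in DZ had 0 to 1 genes called without 1 array. The replicate block changed no call of a member. Irf4 was too dim for the stricter filter and has no value there.

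Signs turned only for differences that were not called. With array weights those of Spib were -0.21 (LZ minus DZ at low affinity), 0.048 (high minus low in LZ), -0.056 (in DZ) and 0.10 (interaction), and those of Spi1 -0.19 (high minus low in DZ) and 0.022 (interaction). Median centring gave -0.015 for Spi1 in high minus low in DZ. Without matched set 3, with or without the replicate block, Spib was -0.069 in LZ minus DZ at low affinity and 0.11 in high minus low in LZ, and the interaction of Irf4 was 0.012. Ranges without 1 array that crossed 0 in LZ minus DZ were -0.28 to 0.051 for Spib, -0.38 to 0.012 for Spi1, -0.33 to 0.62 for Lyz2 and -0.0025 to 0.23 for Cox6a2. At high affinity they were -0.028 to 0.49 for Irf8, -0.39 to 0.024 for Spib and -0.57 to 0.018 for Spi1, and at low affinity -0.32 to 0.33 for Spib and -0.41 to 0.37 for Spi1. High minus low in LZ ran from -0.42 to 0.23 for Spib and -0.64 to 0.073 for Spi1, and in DZ from -0.36 to 0.16 for Irf8, -0.12 to 0.40 for Spib and -0.35 to 0.41 for Spi1. The interaction ran from -0.38 to 0.20 for Irf4, -0.52 to 0.034 for Irf8, -0.56 to 0.088 for Spib and -0.72 to 0.061 for Spi1. The cause of these changes was not tested.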
